A study of Mus musculus with 2 samples.

Results

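Genes that mark smooth muscle, pericytes and renin cells were examined for open chromatin in Wnt4-lineage cells of the mouse kidney, with and without Brg1. The 10 genes were Acta2, Tagln, Myh11, Cnn1, Des and Myocd for smooth muscle, Notch3, Rgs5 and Cspg4 for pericytes and Ren1 for renin cells, taken from 21887 protein-coding genes on the nuclear chromosomes. A peak of open chromatin was assigned to a gene when its summit lay inside the gene, or within 100 kb of it with an end of that gene as the nearest among protein-coding genes. This gave 47 of the 77529 control peaks and 41 of the 61210 Brg1 cKO peaks.

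The libraries were made by ATAC-seq, in which a transposase inserts adapters into accessible DNA, from 50000 tdTomato-positive cells per reaction sorted from kidneys at E18.5, late in gestation. The control library is labelled WT control, and the other Brg1cKO/cKO, a conditional loss of Brg1, which Smarca4 encodes and which drives BAF chromatin remodelling by hydrolysing ATP. The Cre driver, the tdTomato allele and the number of embryos pooled are not stated in the sources available, and the labels enter the molecule as total RNA and the source as transcriptomic although their protocol is ATAC-seq on nuclei. The cell type label of the control library reads only control, so that it holds sorted Wnt4-lineage cells rests on its title and the shared protocol. Each genotype had 1 library, so no test between genotypes was possible and nothing below has a replicate check.

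Smooth muscle cells contract through actin and myosin, and their genes are switched on by serum response factor, which binds CArG boxes in promoters, together with its coactivator myocardin. Pericytes wrap capillaries, depend on Notch and PDGF signalling, and in the kidney arise largely from Foxd1-expressing stroma, as do smooth muscle and the renin cells of the afferent arteriole. The Wnt4 lineage is centred on the nephron epithelium. The peaks below describe how open their loci were in a sorted population and not that the genes were expressed.

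Promoters are shown first for the 3 members whose covered bases were the lowest share of control among those with a RefSeq promoter on GRCm38.p6 (mm10), 1 of them without a peak at its start. Each run is the 250 bases before the start site, 5′ to 3′ along the gene, with CArG-like boxes and the RBPJ core in capitals. Acta2, which encodes smooth muscle alpha-actin, lies on the minus strand (chr19:34255374-34255623). Ren1, which encodes renin, lies on the plus strand (chr1:133350424-133350673), as does Rgs5, which encodes a regulator of G-protein signalling (chr1:169655251-169655500).
Acta2: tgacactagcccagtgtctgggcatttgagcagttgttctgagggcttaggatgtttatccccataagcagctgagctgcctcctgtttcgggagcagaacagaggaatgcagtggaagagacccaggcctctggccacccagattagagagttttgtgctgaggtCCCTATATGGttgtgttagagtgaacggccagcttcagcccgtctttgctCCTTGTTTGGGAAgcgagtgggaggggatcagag
Ren1: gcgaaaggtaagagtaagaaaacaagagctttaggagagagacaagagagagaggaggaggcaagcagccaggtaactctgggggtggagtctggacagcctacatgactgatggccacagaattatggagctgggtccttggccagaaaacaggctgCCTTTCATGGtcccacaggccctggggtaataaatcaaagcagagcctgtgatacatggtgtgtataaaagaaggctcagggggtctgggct
Rgs5: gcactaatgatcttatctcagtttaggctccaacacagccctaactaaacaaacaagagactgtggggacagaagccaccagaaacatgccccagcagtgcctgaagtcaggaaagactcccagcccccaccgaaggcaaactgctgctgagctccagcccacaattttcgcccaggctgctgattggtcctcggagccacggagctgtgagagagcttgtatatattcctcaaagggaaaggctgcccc

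Of the 10 members, 7 had a promoter in the table, and Tagln, Myh11 and Myocd did not. No strict CArG box, with 6 A or T letters between CC and GG, was found on either strand in these 7 windows of 300 bases (250 before and 50 after the start), against 1.63% of all 32807 promoters. With 1 of the 6 middle letters allowed to be C or G, Acta2 held CCCTATATGG at bases -84 to -75 and CCTTGTTTGG at -34 to -25, counted from the start site, and Ren1 held CCTTTCATGG at -92 to -83. Such CArG-like boxes occurred in 8.49% of all promoters. The RBPJ core TGGGAA, searched on both strands, was found in Acta2 alone among the 7, at -27 to -22 where it overlaps the second CArG-like box, and in 25.6% of all promoters. The E-box CANNTG was found in Acta2, Cnn1, Des, Ren1 and Rgs5 and in 72.3% of all promoters, and the cAMP response element TGACGTCA in none of the 7 and in 1.79% of all promoters. A match of letters is a description and not a bound site.

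In both libraries the promoters of 6 of these 7 genes were open. The whole 300-base window of Acta2, Cnn1, Des, Notch3, Rgs5 and Cspg4 lay under a control peak and under a cKO peak. Among 17492 protein-coding genes with a promoter in the table, 65.8% overlapped a control peak and 64.8% a cKO peak. Ren1 was the exception, and the closest peak to its window was 2673 bp away in the control and 2693 bp away in the cKO list. Counting any peak within 1000 bp of either end of a gene, 9 of the 10 members had one in both libraries and Ren1 in neither, while 65.9% of protein-coding genes had one in both, 1.68% in the control alone and 0.292% in the cKO alone.

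Across the 10 genes, open chromatin was called in much the same places in both libraries. Of the 47 control peaks, 38 overlapped a cKO peak by at least 1 bp (80.9%, exact 95% interval 66.7 to 90.9%, for counting error only) and 9 did not, where 25.9% of all control peaks did not. Of the 41 cKO peaks, 37 overlapped a control peak (90.2%, 76.9 to 97.3%) and 4 did not, where 5.92% of all cKO peaks did not. When only as many control peaks were used as the cKO list holds, the most significant first, the order turned: 34 of 39 control peaks (87.2%) and 33 of 41 cKO peaks (80.5%) were found, against 83.6% and 84.3% of all peaks. Peaks of the same strength class, 10 equal classes by the caller's p within a list, were found in 77.5% of cases for the control and 93.1% for the cKO peaks, and both values lay inside the members' intervals. The depth of each library is unknown, so a peak that was not called is not shown to be closed chromatin.

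The members' peaks covered 50282 bp in the control and 46320 bp in the cKO library, 92.1% as much. All peaks together covered 84.6 Mb in the control and 71.4 Mb in the cKO library. Fewer bases were covered in the cKO library at 9 of the 10 genes, as at 71.4% of 16829 protein-coding genes with a peak, and more at Notch3 alone, as at 28.3% of them. Peak numbers were higher in the control at 5 members (44.8% of genes), equal at 4 and higher in the cKO at 1 (6.57% of genes). The median member had 86.8% of its control bases in the cKO library, and the median of the 16705 genes with a control peak was 91.0%, with a middle 50% from 74.3 to 101%. With these equal numbers of peaks, which remove weak control peaks by construction, the members' total turned to 105% of control. Cnn1 came to 118%, Myocd to 114% and Cspg4 to 134%, and 6 members still had fewer bases in the cKO library. No value over all genes is given for covered bases in this setting, so the turn is not shown to be particular to these genes.

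**Figure D1:**
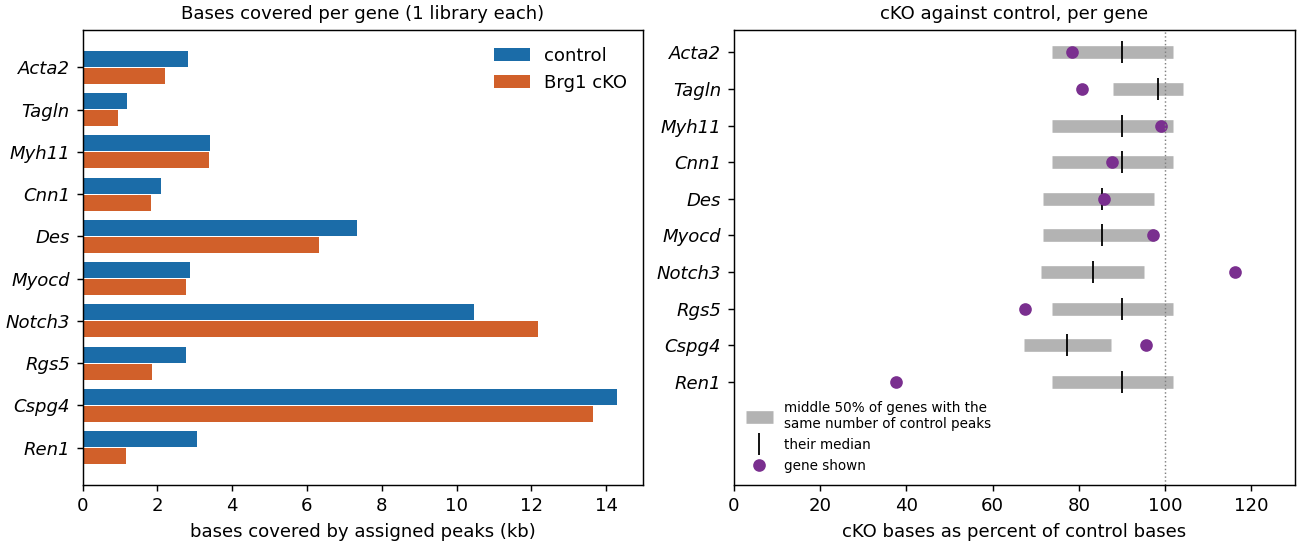
Bases covered by assigned peaks in kb for each gene in the control and Brg1 cKO libraries (left bars), and cKO bases as a percent of control bases (right, points) beside the median and middle 50% of genes with the same number of control peaks; there is 1 library per genotype and no error bar. Ren1, at 37.7%, and Notch3, at 116%, lie farthest outside the grey ranges.

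Among the contractile genes, Acta2 (gene 11475, chr19:34240336-34255585) had control peaks of 1688, 558 and 577 bp and cKO peaks of 1635 and 579 bp. The start-site peak (chr19:34254213-34255900 in the control) and the one 11.1 kb into the gene were called in both libraries, the latter with its summit at the same base. The 558 bp peak 2.77 kb into the gene was called in the control alone. It was weak, at percentile 14.0 of its list where 100 is the most significant, and 41.2% of all control peaks of its class overlapped a cKO peak. Covered bases at Acta2 were 78.4% of control, and for the peaks that overlapped they were 97.7%.

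Myh11, which encodes smooth muscle myosin heavy chain (gene 17880, chr16:14194527-14292188), differed little between the libraries. Its control peaks were 2251, 715 and 453 bp wide and its cKO peaks 2230, 578 and 580 bp, all overlapping. The widest sat across the upper end of the gene, and the others lay 33.1 and 43.0 kb from an end. Covered bases came to 99.1% of control, and only 2.35% of this 97.7 kb gene was covered in the control and 2.32% in the cKO library. In the more significant 50% of each list its share was 104%.

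Cnn1, which encodes calponin (gene 12797, chr9:22099221-22109221), also had the same 3 peaks in both libraries. The strongest of them was not at the promoter but 3.10 kb upstream, at percentile 84.1 of the control and 80.9 of the cKO list, with widths of 748 and 730 bp. The peak over the start site was weak, at percentiles 32.8 and 17.3, and was 811 bp wide in the control and 587 bp in the cKO library. Another peak 0.882 kb downstream was 535 and 517 bp wide. The first and second shared their summit base between libraries, and covered bases came to 87.6% of control.

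Tagln, which encodes transgelin, an actin-binding protein (gene 21345, chr9:45929628-45936058), had the fewest peaks. Its assigned peak lay inside the gene with Pcsk7 as the nearest gene end and began at the same base in both libraries (chr9:45932748-45933926 in the control). It was 1179 bp wide in the control and 952 bp in the cKO library, at percentiles 58.0 and 11.9 of their lists, so that in the more significant 50% of each list only the control peak was left. A wider peak of 2231 bp in the control and 2250 bp in the cKO spanned the upper end of Tagln, but its summit lay outside the gene and nearest to Sidt2, so it was not assigned to Tagln by the rule.

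Des, which encodes the intermediate filament desmin (gene 13346, chr1:75360292-75368579), had 5 control and 4 cKO peaks. At the start site the peak was 2171 bp wide in the control and 2115 bp in the cKO, and summits were 3 bp apart. A pair of peaks 15.4 and 17.2 kb upstream was called in both libraries, at 2462 and 865 bp in the control and 2445 and 655 bp in the cKO. Beyond the far end of the gene a peak of 1437 bp in the control was 1101 bp in the cKO library, and the next, of 414 bp at percentile 50.2, was called in the control alone. That last peak was the strongest of the 9 control peaks without a counterpart, and 85.6% of all control peaks of its class had one. Covered bases at Des were 85.9% of control, and 37.7% in the more significant 50% of each list. There the cKO peaks of 2445 and 1101 bp, at percentiles 37.1 and 28.9, were left out. The control peaks they overlap, at percentiles 51.8 and 62.1, were kept.

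Myocd, which encodes myocardin, the coactivator of serum response factor (gene 214384, chr11:65173608-65269989), kept its peak at the gene end and differed inside the gene. The end peak (chr11:65269578-65270757 in the control) was 1180 bp wide in the control and 1174 bp in the cKO, at percentiles 82.9 and 77.5. Inside the gene, peaks of 380 and 424 bp were called in the control alone, at percentiles 25.9 and 20.1, and the remaining one, of 230 and 200 bp, in both libraries. Of all control peaks in the class of these control-only peaks, 50.6% overlapped a cKO peak. A 708 bp peak 68.6 kb outside the gene was called in the cKO alone, at percentile 5.47. Inside the gene, 1446 bp were covered in the control and 643 bp in the cKO library. Counting whole peaks with a summit inside the gene the cKO bases were 19.3% of control, and over all assigned peaks 97.1%. With a limit of 50 kb, or with the nearest of all annotated genes, the share was 62.1%.
The rule's limit of 100 kb fell near Myocd only. A peak 97.0 kb away, of 647 bp in the control and 696 bp in the cKO, was inside it, and a control peak of 417 bp at 103 kb with no cKO counterpart and a shared peak at 117 kb, of 1650 and 853 bp, were outside.

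**Figure D2:**
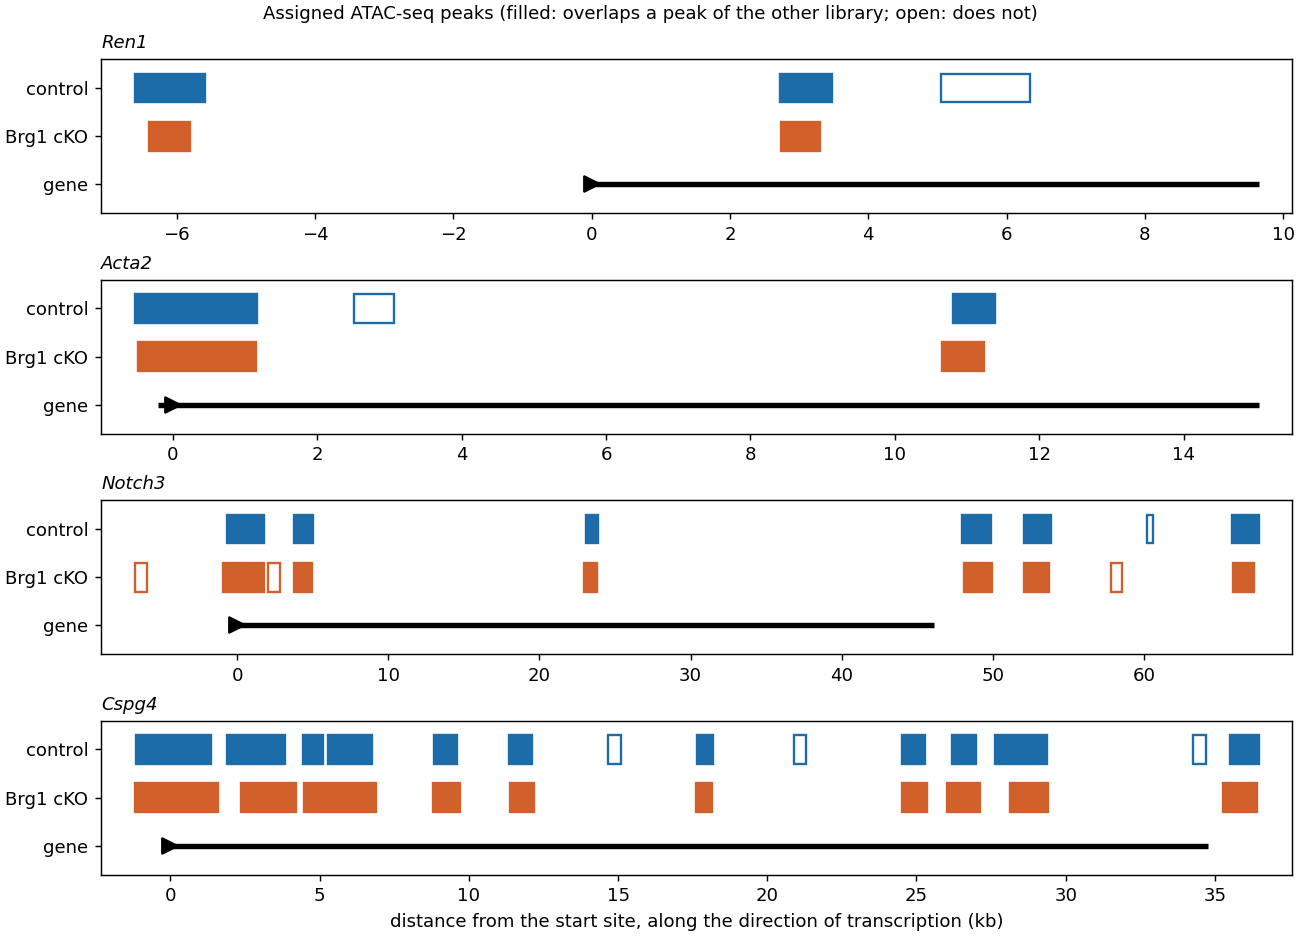
Peaks assigned to Ren1, Acta2, Notch3 and Cspg4 in the control (blue) and Brg1 cKO (orange) lists, drawn to scale against the distance in kb from the start site along the direction of transcription, with the gene as a black bar and its start as an arrowhead. Filled boxes overlap a peak of the other library and open boxes do not; the start of Ren1 has no peak in either list.

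The pericyte genes Cspg4 and Notch3 had the most bases covered by assigned peaks in the set. For Notch3 most of these bases lay outside the gene. Of its own length 8.37% was covered in the control and 10.3% in the cKO library, where the median member had 10.2% and 8.89%. With the nearest of all annotated genes, the cKO bases of Notch3 were 127% of control. Cspg4, which encodes the proteoglycan NG2 (gene 121021, chr9:56865104-56899870), had 14 control and 10 cKO peaks, covering 14282 and 13654 bp. Inside the gene 35.0% of its length was covered in the control and 32.6% in the cKO library, where the median of all 21887 protein-coding genes was 4.70% and 3.85%. Of the control peaks 11 overlapped a cKO peak, and all 10 cKO peaks overlapped a control peak. The 3 without a counterpart were narrow, 429, 409 and 455 bp, at percentiles 11.2, 38.1 and 41.1 of the control list, and lay 14.8, 21.2 and 34.5 kb from the start. Of all control peaks of their classes, 41.2%, 62.3% and 76.8% overlapped a cKO peak, in the same order.
The difference of 4 in peak number at Cspg4 included 1 joining: control peaks of 669 and 1478 bp, 4.63 and 5.82 kb from the start, were overlapped by the same 2438 bp cKO peak (chr9:56869574-56872011). This was the only member peak in either list that overlapped more than 1 peak of the other. Of the 9 Cspg4 peaks that paired 1 to 1, 6 were wider in the cKO library and 3 narrower, and over all its overlapping peaks the cKO bases were 105% of control. The start-site peak was 2525 bp in the control and 2785 bp in the cKO. Among the 133 genes with 14 control peaks the median had 77.1% of its control bases in the cKO library, and Cspg4 had 95.6%.

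Notch3, which encodes the Notch receptor of mural cells (gene 18131, chr17:32120820-32166896), was the member with more open chromatin called in the cKO library, 9 peaks over 12167 bp against 7 over 10462 bp in the control. Its 6 shared peaks were strong, at percentiles from 78.0 to 84.7 of the control and from 72.1 to 83.7 of the cKO list. They included the start-site peak, of 2495 bp in the control and 2766 bp in the cKO, 2 inside the gene at 4.59 and 23.5 kb and 3 beyond its far end. Over the shared peaks the cKO bases were 97.4% of control, so the excess came from the unshared peaks.
The 3 cKO-only peaks were 774, 813 and 780 bp wide, and 2 of them, at percentiles 0.256 and 0.430, were among the weakest of the cKO list. The third, 6.43 kb upstream of the start (chr17:32172885-32173664), was at percentile 23.3, and 89.4% of all cKO peaks of its class overlapped a control peak. In the other direction a 402 bp control peak at percentile 13.8 had no counterpart. At least 1 cKO-only peak was seen at 13.7% of the 16299 genes with a cKO peak, and at Notch3 and Myocd among the 10 members. Of the 622 genes with 7 control peaks, 2.41% reached the 116% of Notch3; the value was 97.4% when only the more significant 50% of each list was used.

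Rgs5 (gene 19737, chr1:169655501-169695813) kept all 3 peaks and had narrower ones near its start. The peak over the promoter printed above was 1409 bp wide in the control and 638 bp in the cKO library, the lowest ratio of any pair among the members, with summits 1 bp apart. The peak 4.08 kb into the gene was 856 and 597 bp wide with the same summit base, and the one at 29.9 kb was 497 bp in the control and 631 bp in the cKO. Covered bases were 67.6% of control. Of the 2199 genes with 3 control peaks, 17.4% had as low a share.

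Ren1, the gene of the protease that starts the renin-angiotensin cascade (gene 19701, chr1:133350674-133360320), had the lowest share of the 10, 3051 bp in the control and 1151 bp in the cKO library, or 37.7%. Of the 2199 genes with 3 control peaks, 2.91% had as low a share. A peak 6.14 kb upstream (chr1:133344066-133345075 in the control) was 1010 bp wide in the control and 595 bp in the cKO, with summits 1 bp apart. A peak 3.02 kb into the gene was 759 and 556 bp wide. The third, 1282 bp wide and 5.40 kb from the start (chr1:133355728-133357009), was called in the control alone. At percentile 32.4 it belonged to a class of which 62.3% overlapped a cKO peak, and it was the widest of the 9 control peaks without a counterpart. Over the 2 shared peaks the cKO bases were 65.1% of control.

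Where a member's peak was called in both libraries its summit mostly lay at nearly the same base. Of 36 pairs in which a control and a cKO peak overlapped only each other, 25 (69.4%) had summits within 50 bp and 7 had the same summit base, and over all 54820 such pairs 77.1% were within 50 bp. The largest distance, 506 bp, was at the peak 15.4 kb upstream of Des. The cKO peak was narrower in 24 of the 36 pairs (66.7%), and in 58.1% of all pairs. The median cKO width was 96.7% of control, ranging from 45.3% at the Rgs5 promoter to 138% inside Cspg4, and 98.2% over all pairs.

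**Figure D3:**
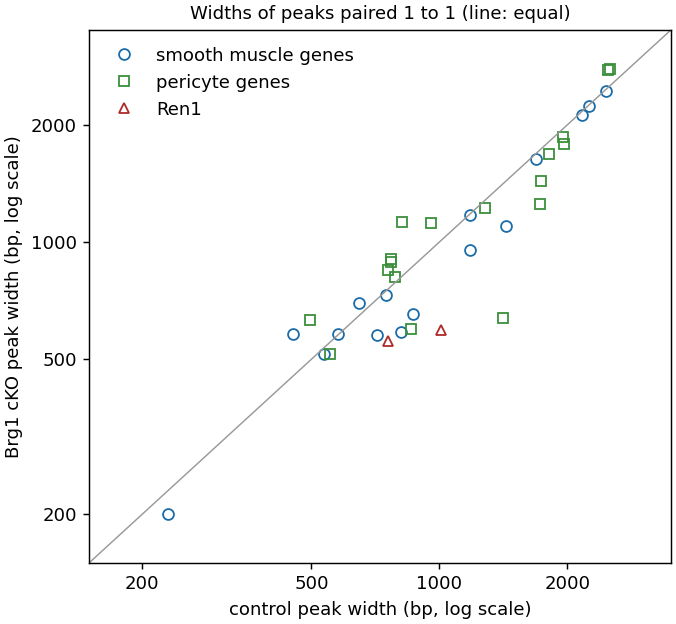
Width in bp of each of the 36 control peaks (x axis, log scale) and of the cKO peak that pairs with it (y axis, log scale) for smooth muscle genes, pericyte genes and Ren1. Points below the line of equal width are narrower in the cKO library, as 24 of the 36 are, including both of Ren1.

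The members' peaks were of middling strength. Percentiles within the control list ran from 7.91 to 84.7 with a median of 52.3, and within the cKO list from 0.256 to 83.7 with a median of 48.7, so no member peak was in the top 10% of either list. All 20 control peaks in the stronger 2 of 5 equal classes overlapped a cKO peak, as did 9 of 11 in the middle class, 6 of 10 in the next and 3 of 6 in the weakest. Over all control peaks the shares from strongest to weakest were 99.9%, 94.8%, 81.2%, 56.4% and 38.3%. The 9 control peaks without a counterpart had a median percentile of 25.9 and a median width of 424 bp, and over all 20043 such control peaks the medians were 21.1 and 580 bp. Of these 9 peaks 7 lay inside a member gene, as did 31 of all 47.

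**Figure D4:**
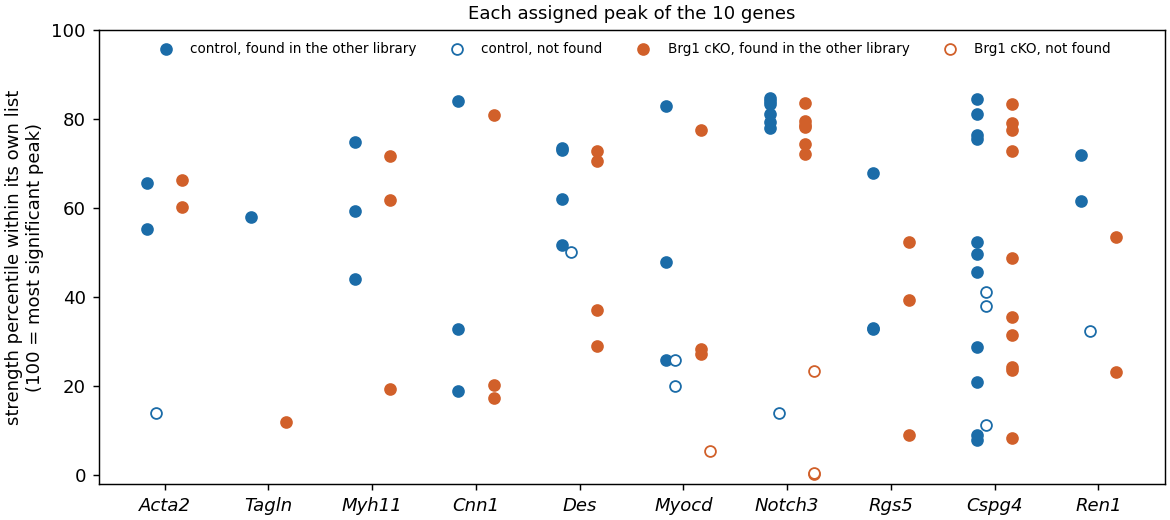
Strength percentile of every assigned peak within its own list (y axis, 100 being the most significant) for each gene, in the control (blue) and Brg1 cKO (orange) lists; open circles have no counterpart in the other library. Open circles lie at or below percentile 50.2, and percentiles of lists of different length are not a measure of change.

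A further 47 genes were chosen as regulators or as contractile, pericyte or renin cell genes, and not all are particular to these cell types. They gave 320 control and 284 cKO peaks. Of these, 255 control peaks (79.7%, 74.9 to 84.0%) and 259 cKO peaks (91.2%, 87.3 to 94.2%) overlapped the other list, where 74.3% and 94.3% were found among all peaks of the same strength classes, values just outside these intervals, below for the control and above for the cKO peaks. The intervals are for counting error only and treat peaks of the same gene as independent, so these differences were not tested. With equal numbers of peaks in both lists the shares were 87.6% and 79.6%, against 83.6% and 84.3% of all peaks. Covered bases were lower in the cKO library at 26 genes and higher at 19, with a median of 98.7% of control, and Actg2 and Vtn had no assigned peak in either. Of all protein-coding genes with a peak, 71.4% were lower and 28.3% higher. The median of those with a control peak was 91.0%. At 44 of the 47 genes a peak within 1000 bp of a gene end, assigned to that gene or not, was called in both libraries, and none had one in 1 library alone. Of all protein-coding genes 65.9% had such a peak in both, 1.68% in the control alone and 0.292% in the cKO alone.
By role, the 12 regulators kept 86 of 110 control peaks, the 14 contractile genes 82 of 107, the 12 pericyte genes 43 of 48 and the 9 renin cell genes 44 of 55. In the other direction 88 of 92, 81 of 90, 41 of 48 and 49 of 54 cKO peaks were found, in the same order of roles. Among all peaks of the same strength classes 72.5%, 75.1%, 71.1% and 78.9% of control peaks and 93.6%, 95.1%, 93.6% and 94.7% of cKO peaks were found. Regulators covered 89.0% of their control bases in the cKO library, contractile genes 88.1%, pericyte genes 107% and renin cell genes 97.0%. Most of the renin cell list was 2 genes: Nfix and Nr2f2 held 19 and 14 of its 55 control peaks. They covered 35095 and 36568 of its 96996 control bp. Among regulators, Mrtfa, which encodes a myocardin-related coactivator, had 14 of 22 control peaks found and no cKO-only peak, and the transcription factor gene Ebf1 21 of 25 with 1 cKO-only peak. Among contractile genes, the myosin light chain kinase gene Mylk had 13 of 21 control peaks found, with 4 cKO-only peaks, and the caldesmon gene Cald1 10 of 15, with 1. Mrtfb, Rbpj, Synpo2, Nfix and Ctsb had the same excess of 3 control-only peaks as Ebf1, and the lowest shares of control bases among them were 55.7% at Ctsb and 59.3% at Rbpj.
At the other end, all control peaks were found at Gucy1a1, Kcnj8, Agtr1a and Nr2f2, and cKO-only peaks were called. These genes, like Mrtfa, Ebf1, Mylk and Cald1, were picked as extremes of control-only minus cKO-only peaks. Among the 47 genes, 15 had at least 1 cKO-only peak, against 13.7% of the 16299 protein-coding genes with a cKO peak. Of the 45 with a control peak, 23 had all of them found. Over all peaks, 25.9% of control and 5.92% of cKO peaks had no counterpart. The strength of the peaks at these genes is not given. Gucy1a1, a subunit of the nitric oxide receptor guanylate cyclase, had 3 cKO-only peaks and covered 3401 bp in the control and 6177 bp in the cKO. The pericyte potassium channel gene Kcnj8 had 2 cKO-only peaks (4748 and 6237 bp), the angiotensin receptor gene Agtr1a 2 (4431 and 6954 bp) and the transcription factor gene Nr2f2 1 (36568 and 37286 bp). Hspb1 and Abcc9 had the same excess of 1 cKO-only peak as Nr2f2.

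Markers of other cell types were open in the same libraries. Gene-end peaks were called in both libraries at 5 of 6 nephron epithelium genes (all but Cdh6), 5 of 5 podocyte, 4 of 4 endothelial and 4 of 4 stromal genes, and among 3 immune genes at 2 in the control and 1 in the cKO, Ptprc having none. Of all protein-coding genes 65.9% had one in both libraries. Nephron genes had a median of 12 control peaks and 10.5 cKO peaks, podocyte genes 20 and 14, endothelial genes 11 and 9.5, and stromal genes 7 and 6.5, against 3 and 3 for the 6 smooth muscle genes, 6.5 and 6.5 for 6 pericyte genes and 2 and 1.5 for the renin cell genes Ren1 and Akr1b7. Over the 16705 protein-coding genes with a control peak the medians were 3 and 2, and none of these counts was adjusted for gene length. All of these smooth muscle and pericyte genes had a gene-end peak in both libraries, and both renin cell genes had none. The summed peaks in the control and cKO lists were 84 and 66 for nephron, 87 and 53 for podocyte and 49 and 38 for endothelial genes. They were 7 and 6 for immune, 28 and 30 for stromal and 20 and 17 for smooth muscle genes. Pericyte genes had 41 and 39 and renin cell genes 4 and 3, where the whole lists held 77529 and 61210. The part of these cell types in the members' values was not tested. In a mixed population, fewer cells of a type and less open chromatin per cell cannot be told apart.
For comparison, 10 interstitial matrix genes also had 38 of 47 control peaks found (80.9%) and covered 99.0% of their control bases in the cKO library, and 10 endothelial genes had 100 of 129 (77.5%) and covered 82.9%. The 92.1% of the members lay between these values, and with 1 library per genotype the differences between lists were not tested.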

How the data were processed

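The submitters' processing notes name mm10 and the tools Trim Galore, SAMtools and Genrich; for versions, aligner, settings, duplicates and transposase shifting, nothing is stated in the sources available. The authors deposited 1 peak list per library. The deposited signal of a peak is its area in the caller's track; the deposited score is capped at 1000; neither entered a result beyond breaking ties in rank by area. The deposited -log10 p ranked peaks within a list only, and the deposited -log10 q started at 1.42 (control) and 1.35 (cKO). Read depth is unknown, and no caller's value was compared between lists.

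Coordinates are mm10, 1-based. Genes and promoters came from RefSeq tables of GRCm38.p6 (49943 genes on nuclear chromosomes); the gene table gives no strand, so start sites came from the promoter table and ends are used elsewhere. Peaks matched when they overlapped by 1 bp. Intervals are exact Clopper-Pearson (95%). Scripts used Python 3.11.15, pandas 2.3.3 and scipy 1.17.1. Overlap steps were tested on control peaks dropped and trimmed by known amounts. The nearest-gene step was tested against a direct search for a random sample of control peaks. No test between genotypes was run (1 library each). The members and lists were chosen with earlier results of these data known. From the 47 further genes the text names all with a gene-end peak in 1 library alone (none), the 4 with the most and the 4 with the fewest control-only minus cKO-only peaks, ties going to the gene with more peaks and then by name. Alternatives varied overlap, assignment, list length, significance and distance to gene ends.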

Additional observations from a re-analysis of the deposited data

How the results depend on the processing

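Of 122 values recomputed under another setting, 101 stayed within the main interval or within 1.5 times, 14 moved further and 7 crossed 100% of control bases. With equal numbers of peaks in both lists, the most significant first, which removes weak control peaks by construction, the members' cKO bases came to 105% of control, Cnn1 to 118%, Myocd to 114% and Cspg4 to 134%, and the other genes had 87.6% of control and 79.6% of cKO peaks found. Of all control and cKO peaks 83.6% and 84.3% were found at these equal numbers. In the more significant 50% of each list the members had 26 control and 20 cKO peaks, 100% of the latter found, and cKO bases were 104% of control at Myh11, 97.4% at Notch3 and 113% at Cspg4, 37.7% at Des and 0 at Tagln. Of all cKO peaks in this setting 95.2% were found. At Des and Tagln, cKO peaks that overlap control peaks fell below the cut. With peaks inside genes only, the members had 31 and 24 peaks, and Myocd had 19.3% of its control bases. Without the distal peaks of Myocd (limit of 50 kb, or nearest among all annotated genes) its share was 62.1%. With overlap of 50% of both peaks, 84.9% of cKO peaks of the other genes were found, against 88.4% of all cKO peaks. The CArG search rose from 0 to 2 promoters when 1 middle letter could be C or G. The promoter-window, CArG-like and without-Cspg4 settings were chosen after the data were seen. No paired analysis was possible because each genotype has 1 library. Unknown depth limits all peak counts.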
